A study of Rattus norvegicus with 12 samples.

Results

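The genes described here were 8 effector genes of cytotoxic lymphocytes, taken by symbol from a deposited table of 30562 genes: Prf1, Gzmb, Gzmk, Gzma, Nkg7, Klrd1, Eomes and Ifng. All 8 were found, and 7 of them had counts high enough to be tested, Ifng being the exception. They were measured in poly(A) RNA from 12 stumps of rat sciatic nerve. There were 3 stumps each from a truncated-cone conduit labelled 4:2 and loaded with verteporfin (VP4:2), from a 4:2 conduit without it (CC4:2), from a conduit labelled 4:4 (CC4:4) and from control samples (Control). Verteporfin is a drug that keeps YAP, a coactivator that responds to tissue stiffness and stretch, from its TEAD partners, and the study's stated aim was to relate conduit shape to pain relief and to check the part played by YAP. The labels give no strain, sex, age, time after surgery or verteporfin dose, and they do not say what the control stumps received or whether each stump is from a different rat. The spread between replicates that the p-values rest on may then be technical.

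Cytotoxic T cells and natural killer (NK) cells kill target cells by releasing granules. Perforin opens a way into the target and the granzymes, a family of serine proteases, then cut proteins inside it, while secreted interferon gamma activates macrophages and raises antigen presentation. In injured peripheral nerve these lymphocytes enter from the blood along with macrophages and neutrophils, and NK cells have been described in mice as able to clear damaged sensory axons through granzyme B. In whole tissue, fewer cells of a type and less RNA per cell cannot be told apart.

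Totals ran from 13763106 to 18632301 counts per library, and the 8 genes were sparse: the largest count of any of them in a library was 401, for Nkg7. Sequencing used a NovaSeq X Plus for replicates 1 and 2 and a DNBSEQ-T7 for replicate 3 of each group, so each platform held every group. Control replicate 1 stood apart from the other controls, with a chi-square per degree of freedom of 318 against each of them, and 87.1 between those others. Its summed Schwann cell and myelin markers were 457 CPM, against 4570 and 2660 CPM in Control replicates 2 and 3. CC4:2 replicate 3 was the highest library of its group for 7 of 7 tested members, and its summed level of 12 T cell identity genes was 81.7 CPM, against 30.7 and 35 CPM in CC4:2 replicates 1 and 2. The members' calls and the list counts were refitted without each of these libraries, while summed levels, ratios and likeness include them unless said otherwise. Defining markers of T cells (Cd3d, Cd3e, Cd3g), of NK cells (Ncr1) and of Schwann cells (Sox10) were detected in every group.

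RefSeq promoter sequences on the rat build GRCr8 were found for 7 of the 8 genes, and Klrd1 was not among them. The 250 bases before the start of the perforin gene and of the 3 granzyme genes are shown because Prf1, Gzmb and Gzmk passed the test in CC4:2 against Control and Gzma did not. The windows are chr20:29788790-29789039 on the plus strand for Prf1, chr15:34462470-34462719 on the minus strand for Gzmb, chr2:46582016-46582265 on the minus strand for Gzmk and chr2:46485697-46485946 on the minus strand for Gzma. Capitals mark matches on either strand to AGGTGT (a T-box half-site), TGTGGT (RUNX), TGACGT (a CRE half-site), AGGAAG (ETS), TTCNNNGAA (bound by STAT dimers) and the core promoter element TATAAA.
Prf1: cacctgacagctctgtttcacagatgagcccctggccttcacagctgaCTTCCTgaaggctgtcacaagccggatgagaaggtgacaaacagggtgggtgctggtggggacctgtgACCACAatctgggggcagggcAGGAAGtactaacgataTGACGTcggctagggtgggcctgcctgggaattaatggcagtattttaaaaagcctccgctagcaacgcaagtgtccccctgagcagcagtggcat
Gzmb: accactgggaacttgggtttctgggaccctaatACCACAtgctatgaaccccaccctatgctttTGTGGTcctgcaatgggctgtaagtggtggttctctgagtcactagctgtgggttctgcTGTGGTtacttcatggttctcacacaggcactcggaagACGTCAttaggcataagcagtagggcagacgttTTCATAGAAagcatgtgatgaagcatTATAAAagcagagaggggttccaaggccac
Gzmk: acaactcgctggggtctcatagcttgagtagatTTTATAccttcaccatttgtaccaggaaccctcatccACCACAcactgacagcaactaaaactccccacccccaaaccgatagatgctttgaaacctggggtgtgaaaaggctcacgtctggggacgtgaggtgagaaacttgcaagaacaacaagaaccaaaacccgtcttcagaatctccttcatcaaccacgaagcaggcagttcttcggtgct
Gzma: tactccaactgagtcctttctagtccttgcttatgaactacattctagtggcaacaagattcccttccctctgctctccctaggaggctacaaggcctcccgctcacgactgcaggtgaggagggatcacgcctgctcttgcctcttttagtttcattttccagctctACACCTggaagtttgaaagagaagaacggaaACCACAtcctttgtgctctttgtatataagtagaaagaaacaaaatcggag
The RUNX letters occurred in 6 of the 7 member promoters, all but that of Ifng, and in 14.5% of 33469 rat promoters of this length. Gzmb held them 3 times, 217, 186 and 127 bases before its start, and had TATAAA 30 bases before it. The T-box letters, bound by Eomes and by its relative T-bet, occurred in 1 member promoter, that of Gzma, 82 bases before the start, and in 11.6% of all promoters. The CRE half-site was in 2 of the 7 (Prf1 and Gzmb) and in 6.95% of all. ETS letters were in 2 of 7 against 29.5%, the STAT site in 2 of 7 against 7.67%, and TATAAA in 3 of 7 against 12.9%. Outside Gzmb the TATAAA letters lay further from the start, 139 bases before it in Ifng and 217, on the minus strand, in Gzmk. The marked matches did not overlap each other. A match describes the letters and does not show binding. In the RefSeq gene order Gzma and Gzmk were neighbours, and Klrd1 lay between the NK receptor genes Klre1 and Klrk1.

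Prf1 (ENSRNOG00000000562) encodes perforin. Levels are given as CPM, counts scaled to a common library total after TMM scaling, in the order of replicates 1, 2 and 3. Prf1 stood at 8.22, 5.37 and 5.63 CPM in VP4:2, at 0.953, 5.24 and 6.74 CPM in CC4:2, at 13.0, 12.4 and 13.7 CPM in CC4:4 and at 10.5, 21.6 and 23.3 CPM in Control. All stumps from 4:2 conduits, with or without verteporfin, lay below all CC4:4 and Control stumps, and the VP4:2 and CC4:2 values overlapped. The group means were 6.41 ± 1.58 in VP4:2, 4.31 ± 3.00 in CC4:2, 13.1 ± 0.674 in CC4:4 and 18.5 ± 6.96 CPM in Control (SD, n = 3 each). Of the 7 tested members Prf1 varied least among CC4:4 stumps, with a coefficient of variation of 5.16%.

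Gzmb (ENSRNOG00000049976) encodes granzyme B, which activates caspases in the target cell. Its level was 7.40, 4.19 and 2.43 CPM in VP4:2, 0.265, 0.959 and 2.45 CPM in CC4:2, 8.98, 10.5 and 5.95 CPM in CC4:4 and 12.1, 2.89 and 9.93 CPM in Control. The CC4:2 stumps lay below all CC4:4 and Control stumps, while VP4:2 reached from just under the top of the CC4:2 values (2.43 against 2.45 CPM) into the range of Control. The Gzmb values of Control were also the most spread of the 7 tested members on the log2 scale (SD 1.10), from 2.89 CPM in replicate 2 to 12.1 CPM in replicate 1. In 4 of the 12 libraries its deposited count was not a whole number, as arises where reads are split between near-identical genes, and its level is uncertain to that extent.

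Gzmk (ENSRNOG00000010661) encodes granzyme K, which marks memory-type effector T cells in humans and mice. The values were 3.51, 0.913 and 1.46 CPM in VP4:2, 0.424, 0.564 and 2.92 CPM in CC4:2, 5.99, 4.88 and 9.16 CPM in CC4:4 and 4.50, 5.47 and 9.53 CPM in Control. Both 4:2 groups lay wholly below CC4:4 and Control and overlapped each other. Gzma (ENSRNOG00000010603) encodes granzyme A, a trypsin-like granzyme. It was measured at 1.37, 0.913 and 0.703 CPM in VP4:2, at 0.318, 0.395 and 1.57 CPM in CC4:2, at 1.17, 1.49 and 0.821 CPM in CC4:4 and at 0.956, 0.859 and 2.67 CPM in Control. Here all 4 groups overlapped. Gzma had the fewest counts of the tested members, 213 in all and 6 to 33 per library. Its summed count was 43 in CC4:2 (95% Poisson interval 31.1 to 57.9) and 61 in Control (46.7 to 78.4), intervals that cover counting error only.

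Nkg7 (ENSRNOG00000017749) encodes a granule membrane protein needed for granule release. It stood at 6.69, 3.92 and 4.54 CPM in VP4:2, at 1.16, 1.92 and 6.58 CPM in CC4:2, at 23.5, 12.4 and 12.5 CPM in CC4:4 and at 13.7, 20.5 and 29.1 CPM in Control. Klrd1 (ENSRNOG00000060246) encodes CD94, the partner chain of the NKG2 receptors on NK cells and some CD8 T cells. Klrd1 reached 5.48, 4.30 and 6.22 CPM in VP4:2, 1.11, 1.07 and 3.65 CPM in CC4:2, 10.7, 8.94 and 15.9 CPM among CC4:4 stumps and 11.4, 26.6 and 17.6 CPM among Control stumps. Klrd1 was the one member whose VP4:2 stumps all lay above the CC4:2 stumps, and they still lay below every CC4:4 and Control stump. For Nkg7 the 4:2 groups overlapped each other and neither reached CC4:4 or Control.

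Eomes (ENSRNOG00000042140) encodes a T-box transcription factor that drives Prf1 and Gzmb expression in mouse T cells and is needed for NK cell maturation there. The level was 1.32, 0.752 and 1.73 CPM in VP4:2, 0.212, 0.451 and 1.25 CPM in CC4:2, 8.57, 4.20 and 4.24 CPM in CC4:4 and 3.21, 4.84 and 7.59 CPM in Control. The separation was the same as for Nkg7, with both 4:2 groups below both others. Ifng (ENSRNOG00000007468), which encodes interferon gamma, had 18 counts over all libraries and 0 in 6 of the 12. Its summed count was 1 in VP4:2 (0.0253 to 5.57), 1 in CC4:2 (0.0253 to 5.57), 9 in CC4:4 (4.12 to 17.1) and 7 in Control (2.81 to 14.4), where the 95% Poisson intervals cover counting error only. Of the 9 in CC4:4, 8 came from replicate 1. When genes of low count were left in the fit, Ifng gave -2.85 on the log2 scale for CC4:2 against Control (adjusted p = 0.22), so no difference was detectable at this depth.

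For each of the 7 tested members the lowest group mean was that of CC4:2 and the next that of VP4:2. CC4:4 and Control followed, with Control highest for Gzma, Prf1, Nkg7 and Klrd1 and CC4:4 highest for Gzmb, Gzmk and Eomes. The lower neighbours, VP4:2 and CC4:2, and the upper ones, CC4:4 and Control, were not separated by the test for any member, as given below.

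**Figure D1:**
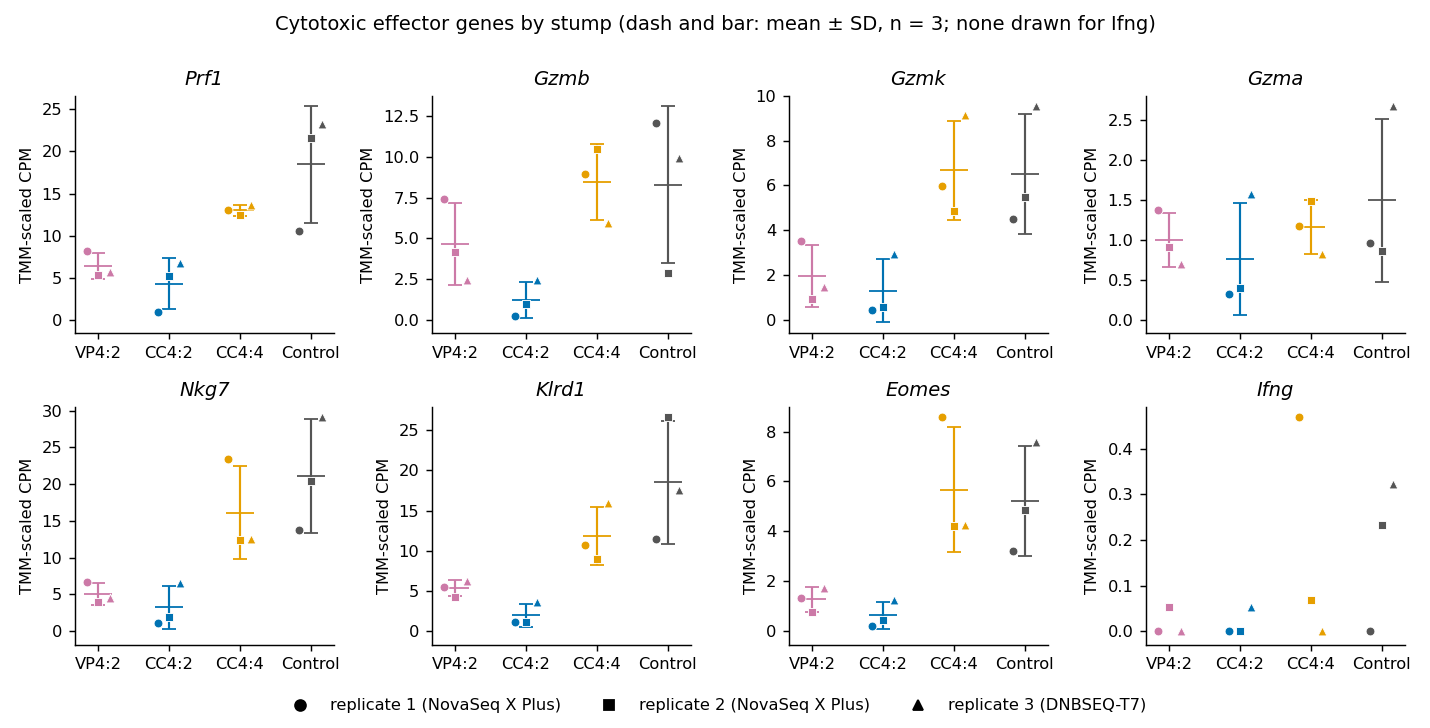
Level of each of the 8 genes in TMM-scaled CPM (y axis) in the 12 stumps, by group (x axis). Points are stumps, shaped by replicate and platform, and the dash and bar give the mean ± SD (n = 3), which is left out for Ifng. The CC4:2 and VP4:2 stumps lie below the CC4:4 and Control stumps for Prf1, Gzmk, Nkg7, Klrd1 and Eomes, while the Gzma groups overlap.

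The first comparison asked what the 4:2 conduit changed relative to control stumps. In CC4:2 stumps perforin, granzymes B and K, both surface and granule membrane genes and Eomes were all lower than in control stumps, by 4.28-fold to 9.45-fold. The largest fall was in Klrd1 (log2 fold change -3.24 ± 0.50 SE, 95% interval -4.35 to -2.13, adjusted p = 0.00066), followed by Eomes, which fell 8.03-fold (95% interval -4.37 to -1.64 on the log2 scale, adjusted p = 0.0032). Gzmb gave -2.76 ± 0.73 (adjusted p = 0.012), Nkg7 -2.71 ± 0.58 (0.0039), Gzmk -2.30 ± 0.72 (0.024) and Prf1 -2.10 ± 0.54 (0.01). Gzma was not called, at -0.95 ± 0.66 with an interval of -2.40 to 0.49 (adjusted p = 0.26). In all, 6 of 7 members were called lower by the quasi-likelihood test of edgeR, where 23.2% of all 15712 tested genes were, and the same 6 showed no overlap between groups, where 25.8% of all genes lay lower without overlap. The median over the 7 was -2.71, beside -0.05 over all genes.

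Nkg7, Klrd1 and Eomes kept their calls in each of the 13 alternative fits of this comparison. Leaving out CC4:2 replicate 3 moved Gzma to -2.03 and called it (adjusted p = 0.031), and all 7 members were then lower. That library was the highest of its group for every tested member, so leaving it out lowers each CC4:2 mean by the choice itself. Without Control replicate 1 the count stayed at 6. Gzmk lost its call without CC4:2 replicate 1 (adjusted p = 0.071), CC4:2 replicate 2 (0.081) or Control replicate 3 (0.085). In a fit of only the 6 stumps compared, Gzmb (0.0503), Gzmk (0.066) and Prf1 (0.06) lost theirs, which left 3. Within platforms, the NovaSeq stumps alone gave 5 calls, without Prf1 (adjusted p = 0.065), and mean differences of -3.85 to -1.11. The single DNBSEQ-T7 pair gave -2.49 to -0.72, with 7 of 7 members below 0.

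The conduits were then set against each other. The 6 members that were lower in CC4:2 than in Control were also lower in CC4:2 than in CC4:4, where 20.7% of all genes were called lower, and Gzma was again not called (-0.60 ± 0.66, adjusted p = 0.49). Eomes gave -3.13 ± 0.62 (adjusted p = 0.003), Gzmb -2.78 ± 0.73 (0.013), Klrd1 -2.60 ± 0.49 (0.0025), Gzmk -2.34 ± 0.72 (0.025), Nkg7 -2.32 ± 0.57 (0.0092) and Prf1 -1.60 ± 0.54 (0.036). All 6 lay lower without overlap, beside 28% of all genes, and the median of the 7 members was -2.34, beside 0.01 over all genes. This comparison and the one before share the CC4:2 stumps. Prf1 lost its call without CC4:2 replicate 2, without any 1 of the CC4:4 replicates, in the 6 stumps alone (adjusted p = 0.068) and in the NovaSeq stumps alone (0.092), while Gzmk lost it without CC4:2 replicate 1 (adjusted p = 0.072), CC4:2 replicate 2 (0.08) or CC4:4 replicate 3 (0.072). The DNBSEQ-T7 pair had 6 of 7 members below 0, with Gzma at 0.84.

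CC4:4 stumps against control stumps showed no called member. Estimates ran from -0.64 ± 0.45 for Klrd1 to 0.13 ± 0.55 for Eomes, 4 below and 3 above 0, and the 7 intervals reached from -1.77 (Gzma) to 1.52 (Gzmk). The edgeR test called 0 of 7 members, 0 of 7 had an unadjusted p under 0.05, and DESeq2 called 0. Of all genes edgeR called 0%, with 830 at an unadjusted p under 0.05 (5.28%), and DESeq2 called 11. These intervals are wide, so a change of the size they span was not detectable with these samples. Without Control replicate 1 the all-gene count became 295, and 0 members were among them.

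**Figure D2:**
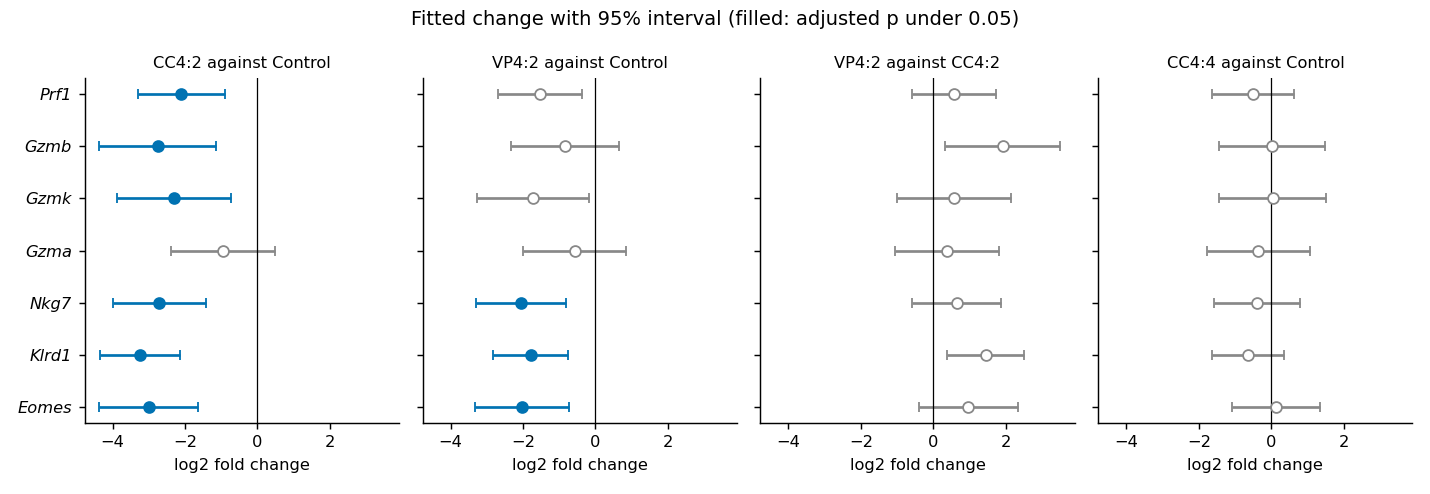
Fitted log2 fold change (x axis) with its 95% interval for the 7 tested members (y axis) in 4 comparisons. Filled points passed an adjusted p of 0.05: 6 in CC4:2 against Control, 3 in VP4:2 against Control and none in the other panels.

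Verteporfin-loaded stumps were compared with control stumps to see how far the 4:2 pattern held with the drug present. Nkg7 (-2.06 ± 0.56, adjusted p = 0.029), Eomes (-2.03 ± 0.58, 0.035) and Klrd1 (-1.79 ± 0.47, 0.025) were lower in VP4:2. Prf1 (-1.53 ± 0.53, adjusted p = 0.068), Gzmk (-1.72 ± 0.70, 0.11), Gzmb (-0.84 ± 0.68, 0.41) and Gzma (-0.57 ± 0.65, 0.57) did not pass. The 3 of 7 called stand beside 9.57% of all genes called lower, and 5 of 7 members lay lower without overlap, beside 18.8% of all genes. The calls did not hold without single libraries: all 3 were lost without VP4:2 replicate 1, 2 or 3, without Control replicate 2 or 3 and in the NovaSeq stumps alone. Without Control replicate 1 there were 4, beside 2191 of all 15975 genes called lower. DESeq2 called 5, beside 2051 of 16475 genes called lower. The main fit called 1503 of 15712 genes lower, so calls also rose over all genes.

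The 4:2 conduit with verteporfin was then compared with the 4:2 conduit without it. Every fitted change was above 0, and none passed the test. Gzmb was at 1.92 ± 0.72 (interval 0.33 to 3.51, adjusted p = 0.15) and Klrd1 at 1.45 ± 0.48 (0.38 to 2.51, adjusted p = 0.11). The other 5 ran from 0.38 ± 0.65 for Gzma to 0.97 ± 0.61 for Eomes, and the median of the 7 was 0.65, beside -0.03 over all genes. The edgeR test called 0 of 7, with 2 at an unadjusted p under 0.05, beside 5.23% of all genes called higher and 0.999% called lower. Klrd1 was the 1 member of 7 that lay higher without overlap, beside 17.5% of all genes. DESeq2 called 2, Gzmb (adjusted p = 0.044) and Klrd1 (0.027). Over all genes it called 1321 of 16870 higher, against 822 of 15712 by edgeR. Without CC4:2 replicate 3, Klrd1 reached 2.28 and was called (adjusted p = 0.014). That library was the highest of its group for every tested member, so leaving it out raises this contrast by the choice itself.

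Within platforms the sign of this contrast was not the same for 5 members, a difference that was not tested. In the NovaSeq stumps all 7 members were higher in VP4:2, by mean log2 differences of 1.36 (Eomes) to 3.14 (Gzmb). In the DNBSEQ-T7 pair 5 of 7 were lower in VP4:2, with Gzma at -1.03, Gzmk at -0.95 and Nkg7 at -0.52, while Klrd1 (0.75) and Eomes (0.43) were higher. That pair holds CC4:2 replicate 3, the highest CC4:2 library for each of the 7, so the platform and that library cannot be told apart. A p that misses the threshold does not show that the groups were alike: the upper limits of the 7 intervals ran from 1.74 (Prf1) to 3.51 (Gzmb).

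Against CC4:4, VP4:2 stumps had 1 called member, Eomes (-2.16 ± 0.58, adjusted p = 0.039), beside 5.51% of all genes called lower. All 7 estimates were below 0, with Nkg7 at -1.68 ± 0.56 (adjusted p = 0.074) and Gzma at -0.22 ± 0.65 (0.86), and 5 of 7 members lay lower without overlap, beside 22.4% of all genes. The Eomes call was lost when any 1 of the 6 libraries was left out (adjusted p = 0.0586 to 0.138) and in the NovaSeq stumps alone (0.0953). A fit of only the 6 stumps compared called 5 members, beside 1653 of all 15108 genes called lower. DESeq2 called 3, beside 1492 of 16475. The main fit called 866 of 15712 genes lower.

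The members were next set against the T cell signal of the same stump. The sum of the 12 T cell identity genes was 105, 125 and 140 CPM in VP4:2, 30.7, 35 and 81.7 CPM in CC4:2, 419, 376 and 273 CPM in CC4:4 and 244, 385 and 530 CPM in Control. Some of these genes (Cd247, Cd2, Lck and Zap70) are expressed by NK cells too. On the log2 scale, the ratio of Nkg7 to this sum averaged -4.64 ± 0.57 in VP4:2, -4.18 ± 0.54 in CC4:2, -4.51 ± 0.39 in CC4:4 and -4.19 ± 0.04 in Control (SD, n = 3 each). The Nkg7 ratio differed by 0.01 between CC4:2 and Control. Over the 6 members other than Gzma, this difference ran from -0.37 (Klrd1) to 0.62 (Prf1), with exact two-sided permutation p-values of 0.4 to 1. Against the summed pan-leukocyte genes the same 6 differences were all below 0, from -1.27 (Klrd1), -1.17 (Eomes), -0.89 (Nkg7) and -0.89 (Gzmb) to -0.65 (Gzmk) and -0.28 (Prf1), with exact permutation p-values of 0.2 to 1. The members' ratios thus depended on the genes they were set against.

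For Gzma the CC4:2 stumps separated from the CC4:4 and Control stumps. Its ratio to the T cell sum was -6.26, -7.10 and -7.64 in VP4:2, -6.59, -6.47 and -5.71 in CC4:2, -8.48, -7.98 and -8.38 in CC4:4 and -8.00, -8.81 and -7.64 in Control. Every CC4:2 stump lay above every Control and CC4:4 stump, by a mean of 1.89 over Control (exact two-sided permutation p = 0.1, adjusted 0.6 over 102 such tests) and of 2.02 over CC4:4 (p = 0.1 in the same exact test). With 3 against 3 samples 0.1 is the smallest p this test can give, so it cannot pass 0.05. Of the 102 tests 17 sat there, where 10.2 are expected by chance. Not all of them were of Gzma. Over the pan-leukocyte sum, VP4:2 lay below Control at this p for Gzmk (-1.51), Prf1 (-1.1), Nkg7 (-1.66), Klrd1 (-1.35) and Eomes (-1.66). VP4:2 lay below CC4:4 in the same way for Nkg7 (-1.36), Klrd1 (-0.84) and Eomes (-1.87). Eomes over the T cell sum was also lower in VP4:2 than in Control at this p (-0.45). Over the pan-leukocyte sum Gzma did not separate CC4:2 from Control: it was at -10.17, -9.74 and -8.24 in CC4:2 and at -10.60, -10.97 and -9.55 in Control (difference 0.99, exact permutation p = 0.3). It did separate CC4:2 from CC4:4, which was at -10.39, -10.35 and -10.73 (difference 1.1, exact permutation p = 0.1). Gzma over Gzmk also separated, in both 4:2 groups. Gzmk alone separated the same groups while Gzma overlapped, so this ratio follows the Gzmk levels and is no further result. The adjusted p of the exact permutation test was 0.6 for each 4:2 group against Control and against CC4:4. The CC4:2 stumps had log2 ratios of -0.42, -0.51 and -0.90 and the Control stumps -2.23, -2.67 and -1.84 (difference 1.64, exact permutation p = 0.1). The VP4:2 stumps were at -1.36, 0 and -1.05 (difference from Control 1.44, exact permutation p = 0.1), and the CC4:4 stumps at -2.35, -1.71 and -3.48. Every stump of both 4:2 groups thus lay above every CC4:4 and Control stump. Low Gzma counts, 6 to 33 per library, limit these ratios.

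**Figure D3:**
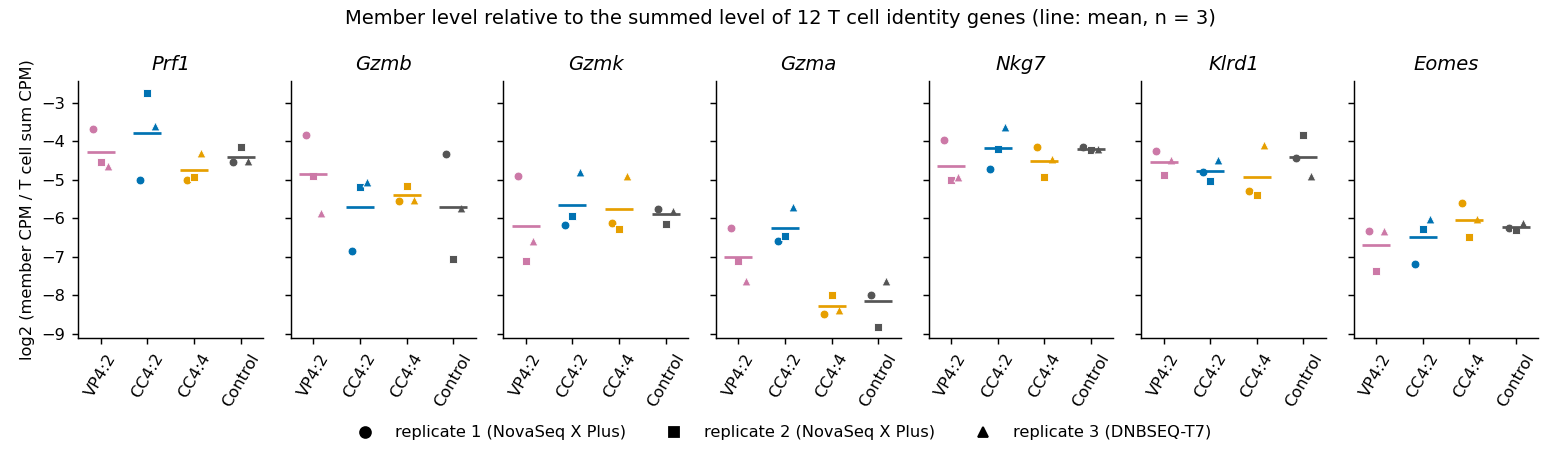
Log2 ratio of each tested member's CPM to the summed CPM of 12 T cell identity genes (y axis) by group (x axis). Points are stumps, shaped by replicate and platform, and lines are group means (n = 3). Gzma is the member whose CC4:2 stumps (-6.59 to -5.71) all lie above its Control stumps (-8.81 to -7.64).

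The rest of the cytotoxic machinery was read from lists of genes drawn up by role. Of 10 tested genes of granule assembly and release, 8 fell in CC4:2 against Control, where 23.2% of all genes did, and 2 did not pass (median -1.71). They included Srgn, which encodes the granule proteoglycan serglycin (-2.17 ± 0.26, adjusted p = 0.00019), Ctsc, which encodes the protease that activates granzymes (-1.18 ± 0.17, 0.00046), and Ctsl (-1.32 ± 0.32, 0.0074), which encodes a lysosomal protease. Lamp1, a lysosomal membrane gene of all cells, was at -0.14 ± 0.17 (adjusted p = 0.53). Of 7 further granzyme genes listed, 3 had no unique symbol match and 3 had too few counts. The other, Gzmm, fell to 9.10 ± 3.54 CPM in CC4:2, against 28.1 ± 6.16 CPM in Control (-1.62 ± 0.27, adjusted p = 0.00099). In VP4:2 it stood at 9.53 ± 1.62 CPM, a change of 0.07 ± 0.27 against CC4:2 (95% interval -0.52 to 0.65, adjusted p = 0.91). The 3 tested protease inhibitor genes did not pass: Serpinb9, whose product blocks granzyme B, was at -0.34 ± 0.15 (adjusted p = 0.095), Serpinb6a at 0.54 ± 0.23 (0.078) and Serping1 at 0.00 ± 0.22 (0.99). In this list 1 gene was called lower without CC4:2 replicate 3, and 1 was called higher without Control replicate 1.

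Among death ligands and receptors, where Fasl had no match by symbol, 3 of 5 tested genes fell in CC4:2 against Control and 1 rose. Of all genes 23.2% were called lower and 20.3% higher, so 1 of 5 rising was near the share of all genes. The genes that fell were Tnf (-3.80 ± 0.29, adjusted p = 2.1e-05), Lta and the death receptor gene Fas (-1.41 ± 0.15, 0.00011). The one that rose was Tnfsf10, which encodes the ligand TRAIL (1.13 ± 0.28, adjusted p = 0.0085), with 31.6 CPM in CC4:2 against 14.4 CPM in Control. Of 11 transcription factors of effector lymphocytes 8 fell, 1 rose, a share below that of all genes, and 2 did not pass. Stat4 (-0.78 ± 0.23, adjusted p = 0.019) and Id2 (-0.80 ± 0.26, 0.027) were among the falls, Bhlhe40 was at 0.33 ± 0.16 (0.12), and Zeb2, also expressed by macrophages and stromal cells, rose by 0.43 ± 0.12 (0.016). Tbx21, which encodes T-bet, the nearest relative of Eomes in this role, gave -2.88 ± 0.60 (adjusted p = 0.0033) and was singled out after its value was seen.

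Of 12 inducing cytokines and their receptors 10 fell in CC4:2 against Control (median -2.49), where 23.2% of all genes did. They included Il2rb, a receptor chain for growth cytokines of lymphocytes (-2.88 ± 0.36, adjusted p = 0.00023), Il21r (-3.32 ± 0.33, 7.7e-05) and Il18rap (-3.12 ± 0.36, 0.00016). The cytokine genes Il15 and Il21 did not pass. Of 17 genes of the interferon gamma receptor and its targets 16 fell (median -1.41). Whether interferon gamma itself lay behind these falls was not tested, and Ifng had too few counts. The receptor chain gene Ifngr1 was at -0.99 ± 0.13 (adjusted p = 0.00033), the kinase gene Jak1 at -0.49 ± 0.14 (0.017), the guanylate-binding gene Gbp2 at -0.87 ± 0.29 (0.032), and Nos2, the inducible nitric oxide synthase of activated macrophages, at -7.47 ± 0.86 (0.00015). Cxcl9 did not pass (adjusted p = 0.053). Of 9 recruitment genes 7 fell, among them the chemokine genes Ccl3 (-5.56 ± 0.56, adjusted p = 7.9e-05) and Ccl5 (-2.84 ± 0.61, 0.0039), while Cx3cr1 was at -0.40 ± 0.34 (0.36). All 5 tested inhibitory receptor genes fell (median -4.45), among them Lag3 (-4.92 ± 0.68, adjusted p = 0.00036).

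Markers of the cells that could carry these transcripts moved with them. In CC4:2 against Control, where 20.3% of all genes were called higher beside the 23.2% called lower, 12 of 12 T cell identity genes (median -3.16), 4 of 5 CD8 and CD4 lineage genes, 10 of 11 NK receptor genes (median -2.36), 7 of 7 B and plasma cell genes and 4 of 4 pan-leukocyte genes fell. Cd8a was at -4.03 ± 0.44 (adjusted p = 0.00012) and the leukocyte gene Ptprc at -2.40 ± 0.37 (0.00059). Of other immune lists, 4 of 7 macrophage and 5 of 5 neutrophil genes fell, 1 of 4 plasmacytoid dendritic genes fell, a share near that of all genes, and 4 of 8 mast cell genes rose. Without CC4:2 replicate 3 or without Control replicate 1, 12 of 12 T cell, 10 of 11 NK receptor, 8 of 10 granule and 4 of 4 pan-leukocyte genes were again called lower and 7 of 7 Schwann cell genes higher, but 2 mast cell genes in place of 4. The plasmacytoid dendritic count was then 2 without CC4:2 replicate 3 and 0 without Control replicate 1, by the same edgeR test. The 7 of 7 Schwann cell and myelin genes rose (median 3.16), and their summed level was 13600 to 35300 CPM in CC4:2 against 457 to 4570 CPM in Control, the lowest being Control replicate 1. The summed NK receptor level was 31.2 to 62.9 CPM in CC4:2 against 215 to 267 CPM in Control. Tyrobp and Fcgr3a, which macrophages also express, made up 59.9% of this sum in CC4:2 and 57.1% in Control, and the rest of the list summed to 9.53 to 32.6 CPM in CC4:2 against 60.3 to 131 CPM in Control. The summed pan-leukocyte level was 338 to 474 CPM in CC4:2 against 1480 to 2000 CPM in Control. The part of these shifts in cell markers in the members' differences was not tested.

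In VP4:2 against CC4:2, where 0 of 7 members were called by edgeR (2 at an unadjusted p under 0.05, beside 22.1% of all genes, and 2 by DESeq2), some leukocyte markers were. Of all genes, edgeR called 5.23% higher here. All 4 pan-leukocyte genes were higher (median 1.58), with Lcp1 at 2.02 ± 0.21 (adjusted p = 0.00043) and Ptprc at 1.53 ± 0.36 (0.03). Of 12 T cell genes 3 were higher, Cd3e (2.44 ± 0.38, adjusted p = 0.0035), Cd3g (2.12 ± 0.41, 0.012) and Lat (1.34 ± 0.33, 0.038), and of 5 lineage genes Cd8a, Cd8b and the regulatory T cell gene Foxp3 were. Of 11 NK receptor genes the 3 higher were Tyrobp (2.04 ± 0.30, 0.0024), Fcgr3a and Hcst. The adaptor gene Tyrobp and the Fc receptor gene Fcgr3a are also expressed by macrophages. The changes of the 11 ran from 0.08 to 2.77 (median 1.22). Ncr1, a receptor largely restricted to NK cells, was the lowest of them, at 0.08 ± 0.57 (adjusted p = 0.95). Of 7 macrophage genes 3 were higher, such as C1qa (0.92 ± 0.20, 0.021). Of 10 granule genes 2 were higher: Cst7, which encodes an inhibitor of granule cathepsins (2.54 ± 0.42, adjusted p = 0.0047), and Stxbp2, which serves granule fusion (1.21 ± 0.17, 0.0018). Of 9 recruitment genes 5 were higher, among them Ccl3 (3.61 ± 0.53, adjusted p = 0.0024), while Ccl5 was at 0.61 ± 0.58 (0.57). These small groups of genes were picked out after their values were seen. Without CC4:2 replicate 3 the counts higher were 7 of 12 T cell, 5 of 11 NK receptor and 4 of 4 pan-leukocyte genes. They stood beside 1 of 7 members and 639 of all 15959 genes tested in that fit. That library was the highest of CC4:2 for each of the 7 members and for the T cell, NK receptor and pan-leukocyte sums. Leaving it out therefore raises this contrast by the choice itself, and these counts are no separate evidence of a rise. Summed over the list, the NK receptors stood at 117 to 186 CPM in VP4:2 against 31.2 to 62.9 CPM in CC4:2, of which Tyrobp and Fcgr3a made up 79.0% in VP4:2 and 59.9% in CC4:2. The rest of the list overlapped, at 28.5 to 39.8 CPM in VP4:2 and 9.53 to 32.6 CPM in CC4:2. The 8 members stood at 20.4 to 34.0 CPM in VP4:2 against 4.45 to 25.2 CPM in CC4:2. Here too the part of the marker shifts in the members' values was not tested.

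For VP4:2 against Control, edgeR called 1503 of all 15712 tested genes lower (9.57%) and 1461 higher. In this comparison 11 of 12 T cell genes (median -1.67) and 6 of 10 granule genes (-0.99) fell. So did 8 of 12 inducing cytokine and receptor genes (-1.52) and 11 of 17 interferon gamma receptor and target genes (-1.15). Of 11 NK receptor genes 4 fell (median -1.21). Ncr1 averaged 1.14 ± 0.294 CPM in VP4:2 and 9.04 ± 4.48 CPM in Control (SD, n = 3 each), a change of -2.98 ± 0.57 (adjusted p = 0.0081). Fcgr3a was at 0.68 ± 0.32 (adjusted p = 0.15). Ncr1 and Fcgr3a were the lowest and the highest of the 11, and the cells behind this spread were not tested. Gzmm fell by 1.56 on the log2 scale (SE 0.27, adjusted p = 0.0062) and Tbx21 by 1.92 (SE 0.57, 0.04). Neutrophil genes fell in 5 of 5 (median -5.44) and B and plasma cell genes in 5 of 7 (-3.04). Of 4 pan-leukocyte genes 1 fell (median -0.54), or 2 without Control replicate 1. Of 7 macrophage genes 1 fell (-0.08), a share near that of all genes, while 6 of 7 Schwann cell genes rose (2.45). Ncr1 and Fcgr3a were picked out after their values were seen.

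**Figure D4:**
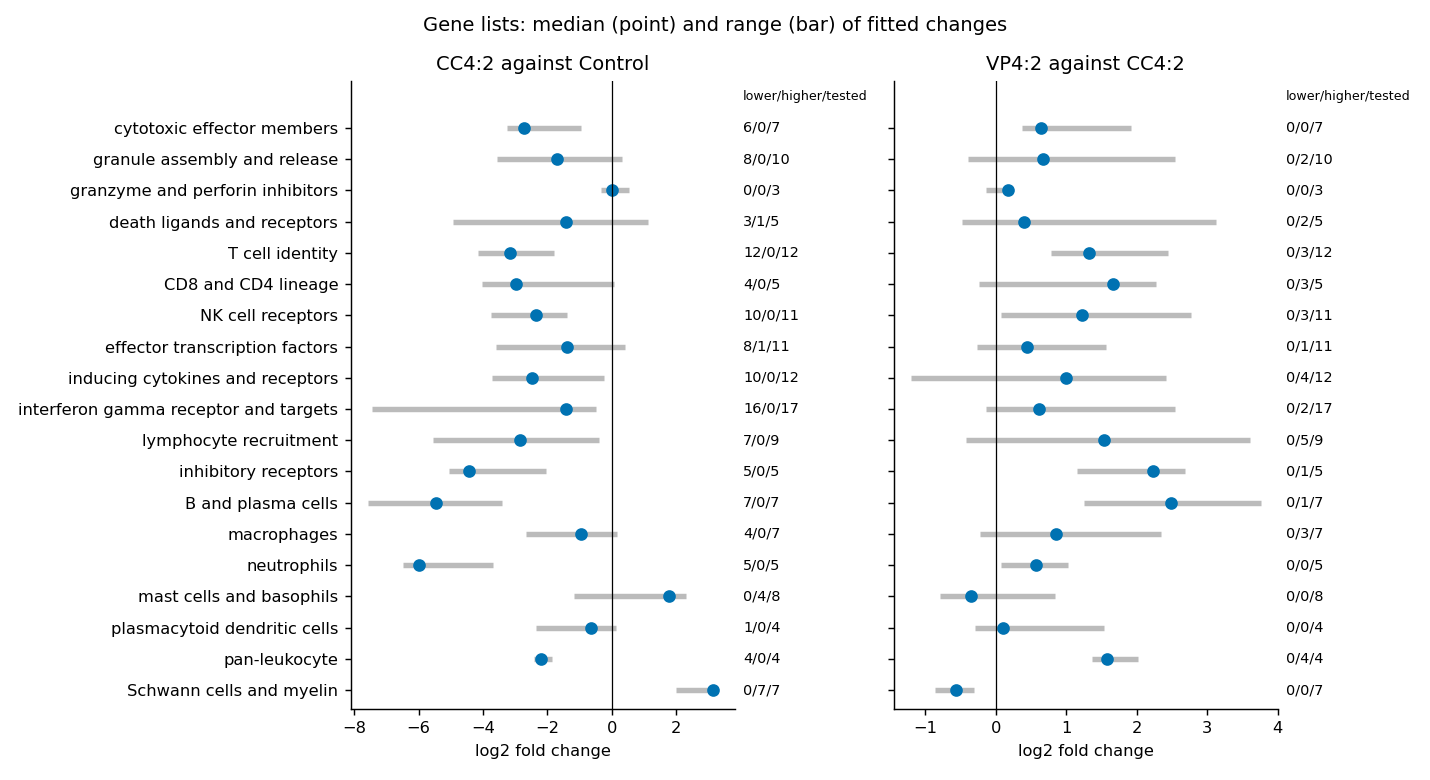
Median (point) and range (bar) of fitted log2 fold changes (x axis) over the tested genes of 19 lists with at least 3 tested genes (y axis), with the number called lower, called higher and tested at the right, for CC4:2 against Control and VP4:2 against CC4:2. The members' median is -2.71 in the first panel and 0.65 in the second, while the pan-leukocyte list is at -2.19 and 1.58.

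The closeness of the members to each other and to other genes was described by the root mean square (RMS) difference between centred log2 CPM profiles over the 12 stumps, with 0 for identical profiles. Nkg7 and Eomes were the closest pair of members, at 0.32, and each ranked 2 among 13752 genes in likeness to the other. Nkg7 ranked 1 for Gzmk, at 0.43. Outside the members, Ccl5, a chemokine gene expressed by cytotoxic lymphocytes, was the nearest of 13746 genes to Nkg7 (0.27), to Eomes (0.27) and to Gzmk (0.45). For Klrd1 the nearest were Hcst (0.30), the NK receptor gene Klrb1c (0.33) and the chemokine receptor gene Cxcr3 (0.34), and for Prf1 they were Slco5a1 (0.39), Klrb1b (0.41) and Il2rb (0.41).

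Gzma was no nearer to the other members than to most genes in this measure, while Gzmb was nearer to them than to most genes. The genes nearest to Gzmb were Chsy3 (0.54), the neurotrophin gene Bdnf (0.54) and RT1-M2 (0.61). Its nearest member was Nkg7 at rank 93 (0.82) and its furthest Gzma at rank 546 (0.99), beside a median of 1.47 over the genes ranked. For Gzma the nearest were the interferon-inducible genes Samd9 (0.25) and Usp18 (0.28) and LOC102556096 (0.26). Its nearest member, Prf1, ranked 7165 (0.81) and its furthest, Eomes, 11069 (1.09), beside a median of 0.79 over the genes ranked. These distances were close to those of Gzmb, so the contrast between Gzma and Gzmb rests on the medians. A prior count of 2 was used before taking logs, which flattens the profiles of genes with few counts, and Gzma had the fewest of the 7. The stumps of a group share their treatment, so the 12 points are not independent of the group differences above.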

How the data were processed

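Sciatic nerve stumps of rats, 12 in all and 3 per group, gave poly(A) RNA for stranded libraries sequenced in paired reads of 150 bases, per the labels' protocols. The authors deposited expected counts for each gene, with no normalization. Per the submitters' processing notes the tools were HISAT2, StringTie, RSEM and DESeq2; their versions and roles, the genome build and the annotation are not given in the sources used here. All 12 deposited tables were identical, so 1 was read and 11 were not used. Between 9.44% and 11.12% of a library's values were not whole (tolerance 1e-06), and all were rounded before testing. Libraries held 13763106 to 18632301 counts and 17561 to 17984 detected genes, and replicates of a group differed beyond sampling noise (chi-square per degree of freedom 47.3 to 318).

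Testing used edgeR 4.0.16 and its quasi-likelihood test (R 4.3.3, limma 3.58.1), with TMM scaling, filterByExpr (15712 genes kept), all 12 samples in 1 fit with a term per group (8 residual degrees of freedom), and calls at a Benjamini-Hochberg adjusted p under 0.05 over all genes. Standard errors (SE) come from the fold change and its F statistic, as the first over the root of the second. Fold changes compare the first group named with the second. Ratios used TMM-scaled CPM with no prior count, and likeness used log2 CPM with a prior count of 2 over genes averaging 1 CPM or more.

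The members and the 20 lists (171 genes, of which 12 had no unique match by symbol) were chosen with earlier results of these data known. Named genes were all members and up to 4 genes of highest mean CPM per list, plus any gene called against the direction of its list. The text prints some of these. Genes outside the rule complete a count of 5 or fewer or were singled out, in both cases after their values were seen. For likeness the 3 nearest genes were named. Promoters came from a RefSeq table of GRCr8, matched by symbol; no genome coordinates of the counted genes are given otherwise.

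Alternatives were RLE scaling, DESeq2 1.42.0, no low-count filter, only the groups compared, the replicate number as a block, platform as a term, NovaSeq samples alone, and each replicate left out. List counts without CC4:2 replicate 3 or Control replicate 1 were added after seeing the data. For VP4:2 against CC4:2 the deviations of same-numbered samples correlated at 0.12, 0.28 and 0.43, and in no other comparison did all 3 pairs exceed 0.1. This does not establish a pairing, and the main fit was unpaired, with the replicate number as a block only in the alternative. The pair at 0.43 is the DNBSEQ-T7 pair, so replicate number and platform cannot be told apart there.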

Additional observations from a re-analysis of the deposited data

How the results depend on the processing

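Counts of called members were the same with RLE scaling, without the low-count filter and with platform as a term, and with the replicate block they were 6 (CC4:2 against Control), 0 (CC4:4 against Control), 3 (VP4:2 against Control), 0 (VP4:2 against CC4:2), 1 (VP4:2 against CC4:4) and 6 (CC4:2 against CC4:4), so the pairing of replicate numbers changed no count. Of the 12 samples, 5 correlated best with their own number.

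The cause of the following changes was not tested. DESeq2 called 5 members in VP4:2 against Control, 2 in VP4:2 against CC4:2 and 3 in VP4:2 against CC4:4. A fit of only the groups compared called 3 members in CC4:2 against Control and 5 in VP4:2 against CC4:4. The NovaSeq samples alone called 0 in VP4:2 against Control and 0 in VP4:2 against CC4:4. With 1 replicate left out the counts ran from 5 to 7 in CC4:2 against Control, 4 to 6 in CC4:2 against CC4:4, 0 to 4 in VP4:2 against Control, 0 to 1 in VP4:2 against CC4:2, and were 0 in VP4:2 against CC4:4 and in CC4:4 against Control.

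Signs that turned belonged to values that were not called. In the NovaSeq samples alone, CC4:4 against Control gave 0.58 for Gzma and 0.10 for Nkg7, and VP4:2 against Control gave 0.35 for Gzma. With 1 replicate left out, CC4:4 against Control ran from -0.29 to 0.53 for Eomes, -0.35 to 0.41 for Gzmb, -0.23 to 0.44 for Gzmk and -0.60 to 0.38 for Gzma. Gzmk ran from -0.14 to 1.97 in VP4:2 against CC4:2, and Gzma from -0.87 to 0.15 in VP4:2 against Control.

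Over all genes, edgeR called 6835 in CC4:2 against Control, against 4363 in the groups compared alone and 3220 in the NovaSeq samples. CC4:2 against CC4:4 gave 6156, and 3253 in the NovaSeq samples. VP4:2 against Control gave 2964, against 4009 by DESeq2, 1869 in the groups compared alone, 19 in the NovaSeq samples and 1166 to 4294 with 1 replicate left out. VP4:2 against CC4:2 gave 979, against 1836 by DESeq2, 202 in the NovaSeq samples and 466 to 746 with 1 left out. VP4:2 against CC4:4 gave 1762, against 3056 by DESeq2, 3321 in the groups compared alone, 29 in the NovaSeq samples and 232 to 1175 with 1 left out. CC4:4 against Control gave 0, 11 by DESeq2 and 0 to 295 with 1 left out. Depth limits Ifng (18 counts) and Gzma (6 to 33 counts per library) most.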
